A study of Mus musculus with 207 samples.

Results

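The cytosolic ribosomal proteins are the protein subunits of the ribosome that translates nuclear-encoded messages. In the annotation of mouse genome build GRCm38, 83 gene symbols followed the family's naming pattern (Rpl or Rps with a number and at most one of the letters a, l, x or y, plus Rplp0, Rplp1, Rplp2 and Rpsa). Of these, 3 were pseudogenes and were left out, which left 80 protein-coding genes, 49 of the large subunit and 31 of the small subunit. All 80 were listed in the jejunum and liver tables, among 55536 genes each, and in the hypothalamus table, among 21883 genes.

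The samples were 207 RNA-seq libraries of tissue from 74 C57BL/6 mice, 70 of jejunum, 70 of liver and 67 of hypothalamus. Every mouse ate a diet whose protein, WPI or CAS, had level 30, with fat at level FAT-20, FAT-40 or FAT-55; the labels give no unit for these levels and spell out neither abbreviation, which are read here as whey protein isolate and casein. By its title, the series concerns protein quality and amount as modifiers of weight gain on fat-rich diets. Going up the fat levels, jejunum and liver had 12, 12 and 12 libraries on WPI and 11, 12 and 11 on CAS, and hypothalamus had 11, 11 and 12 on WPI and 10, 12 and 11 on CAS. All groups shared the strain and the protein level; sex, age, duration of feeding and any batch are not in the labels used here. Samples were whole tissue pieces, so a lower share of a transcript can come from fewer cells of a type or from less RNA per cell, and these cannot be told apart.

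A ribosome has a small subunit, which holds the messenger RNA and decodes it, and a large subunit, which forms the peptide bond. Its proteins are needed in fixed proportion, and in mammals their mRNAs carry a stretch of pyrimidines (C or T in the DNA) at their first bases, the 5′ terminal oligopyrimidine tract, through which growth signals acting on mTORC1 control their translation. In liver, the ribosome content of the cells is known to follow the supply of dietary protein.

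Libraries had 17502377 to 23808051 reads assigned to genes in jejunum, 21000799 to 41024101 in liver and 14397474 to 16134800 in hypothalamus. Members took a median of 2.44% of these reads in jejunum, 0.945% in liver and 1.37% in hypothalamus. A few libraries stood apart in the balance of short and long transcripts. The measure used for this, called the tilt, is the median log2 deviation of transcripts under 1000 bases minus that of transcripts over 4000 bases, computed without the members. The tilt bears on the members because their median transcript is short, 771 bases in jejunum against 2496.5 for all genes tested. A tilt above 0.35, a limit chosen after seeing the values, was found in 1 jejunum library (CAS FAT-55 replicate 11, tilt 0.855, 4.51% of reads on members), 1 liver library (WPI FAT-55 replicate 2, tilt 1.06, 1.38% of reads on members) and 13 hypothalamus libraries. Counts of called members that moved by over 1.5 times without these libraries are given both ways; levels, and the comparison of jejunum with liver, use all libraries. Counts are also given with the stem as a random effect, where that moved them as far: the stem is the animal's identifier without its last digit, shared by groups of mice (24 stems), and the labels do not say what it marks. By the identifiers of the hypothalamus libraries, all mice of a stem ate the same diet.

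**Figure D1:**
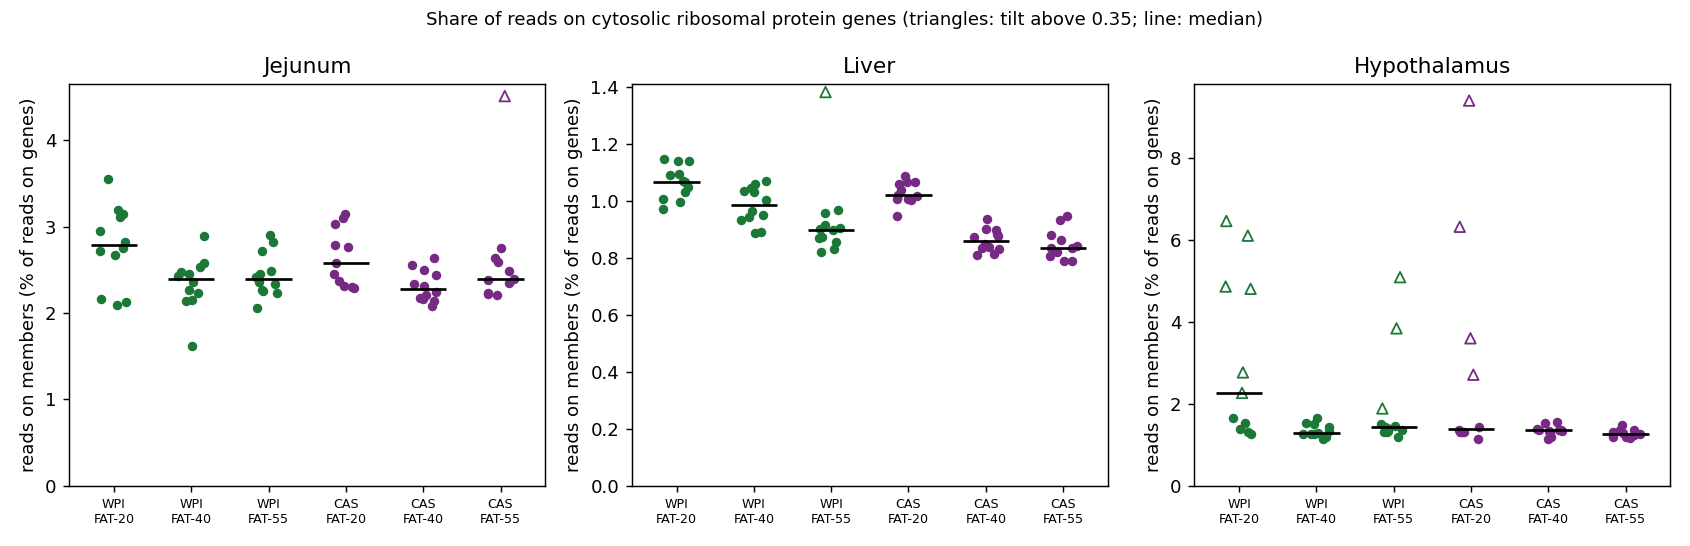
Percent of reads on genes that fell on the 80 members, for each library (point), by diet group in jejunum, liver and hypothalamus; lines are group medians and triangles mark libraries whose tilt exceeds 0.35. In liver the CAS FAT-55 libraries lie between 0.790% and 0.946%, below the CAS FAT-20 libraries at 0.948% to 1.09%; in hypothalamus the high points are all triangles.

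Reads from members could not always be assigned to 1 gene. A median of 46.3% of a member's 75-base exon stretches also occur in other annotated genes, mostly processed copies, with a range of 0% to 98.5%. In addition, 7 members (Rpl13a, Rpl23a, Rpl24, Rpl30, Rpl35, Rpl5 and Rps10) have over 20% of their exon bases under another gene. The jejunum counts carry the name that the aligner STAR gives to its own counts per gene. How shared reads were counted is not stated in the sources used here, so levels of such members are uncertain. Rps3, a small-subunit protein, shares no 75-base stretch with another gene.

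Per transcript length, as TPM (reads per base of transcript, scaled to the same total in each library), the tested members had a median level of 729 TPM in jejunum, 276 TPM in liver and 704 TPM in hypothalamus. In jejunum Rps12 was the highest, at 2057 ± 318 TPM (SD, n = 70), followed by Rps24 at 1858 ± 314 TPM and Rplp1, an acidic stalk protein of the large subunit, at 1722 ± 275 TPM. In liver Rpl10, which joins the large subunit late in its assembly, was the highest at 785 ± 83.7 TPM (SD, n = 70), with Rps2 next at 751 ± 50.6 TPM; their spreads overlapped. In hypothalamus Rplp1 was the highest at 2285 ± 933 TPM (SD, n = 67), with the libraries of high tilt included.

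The lowest tested members were mostly those whose exons overlap another gene. Rps10, with 86.3% of its exon bases overlapped, had 4.70 TPM in jejunum, 1.80 TPM in liver and 5.53 TPM in hypothalamus. Rpl13a, 59.3% overlapped, had 22.9 TPM in jejunum, 12.2 TPM in liver and 15.8 TPM in hypothalamus. Of the members known as tissue-restricted paralogs, Rpl10l, a testis form of Rpl10, was above 0 in 1 of 70 jejunum libraries and in none of the 70 liver and 67 hypothalamus libraries. Rpl39l, the paralog of Rpl39, was above 0 in 27 of 70 jejunum, 15 of 70 liver and 28 of 67 hypothalamus libraries and was too low to test in any tissue. Rpl3l, a muscle paralog of Rpl3, was too low to test in jejunum and liver, and Rpl24, with 71.5% of its exon bases overlapped, in liver and hypothalamus. The tests covered 77 members among 16992 genes in jejunum, 76 among 15051 in liver and 77 among 14830 in hypothalamus.

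In liver, ribosomal protein transcripts were lower at higher dietary fat, with the larger median changes on CAS when all libraries were used. Comparing CAS FAT-55 with CAS FAT-20, 75 of 76 tested members fell and none rose (edgeR quasi-likelihood test, Benjamini-Hochberg adjusted p under 0.05), where 20.7% of all genes tested were lower and 22.6% higher. The median log2 fold change of the members was -0.41, and that of all genes was 0.00. Both subunits took part, with 30 of 31 small-subunit members lower (median -0.42) and 45 of 45 large-subunit members lower (median -0.40). For 62 of the 76 members every CAS FAT-55 library was below every CAS FAT-20 library, a pattern that 2.27% of all genes showed. The share of liver reads on members had a median of 0.836% (0.790% to 0.946%) on CAS FAT-55, against 1.02% (0.948% to 1.09%) on CAS FAT-20.

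Rps3, a small-subunit protein at the mRNA entry and also a DNA repair enzyme, had a lowest, median and highest level of 146, 156 and 163 CPM (counts scaled to a common library size by TMM normalization) in the 11 liver libraries on CAS FAT-55, and of 192, 208 and 237 CPM in the 11 on CAS FAT-20. The groups did not overlap, and the log2 fold change was -0.42 ± 0.07 (SE, adjusted p = 9.88e-07).

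The members with the largest called falls were Rps10, Rps28, Rps27a and Rpl36. Rps10 lies near the detection limit, with 0.163 to 0.850 CPM on CAS FAT-55 and 0.480 to 1.74 CPM on CAS FAT-20; the groups overlapped, and its change of -0.73 ± 0.23 (adjusted p = 0.00865) is the least certain of the 4. Rps28, a small protein of the small-subunit head (chr17:33819027-33824562, minus strand), had 25.4, 33.5 and 43.7 CPM on CAS FAT-55 and 45.5, 51.1 and 56.3 CPM on CAS FAT-20, without overlap, and its level was 0.671 times as high (-0.58 ± 0.09, adjusted p = 8.04e-07). Rps27a, which is made as a fusion with ubiquitin, had 88.0, 95.5 and 102 CPM on CAS FAT-55 and 131, 141 and 151 CPM on CAS FAT-20. These groups did not overlap either, and the log2 fold change was -0.57 ± 0.08 (adjusted p = 1.36e-08). Rpl36, a large-subunit protein, had 47.8, 56.5 and 69.5 CPM on CAS FAT-55 and 76.7, 85.2 and 89.2 CPM on CAS FAT-20, again without overlap (-0.56 ± 0.09, adjusted p = 3.53e-07).

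Members with roles beyond the ribosome's core moved with the rest. Rpsa, the laminin-receptor protein of the small subunit, had 209, 223 and 248 CPM on CAS FAT-55 and 281, 313 and 348 CPM on CAS FAT-20 (-0.46 ± 0.07, adjusted p = 2.28e-07). Rps6, the protein phosphorylated by S6 kinases downstream of mTORC1, had 139, 152 and 163 CPM on CAS FAT-55 and 177, 198 and 226 CPM on CAS FAT-20 (-0.39 ± 0.07, adjusted p = 3.36e-06). Rplp0, the base of the acidic stalk that recruits elongation factors, had 213, 240 and 259 CPM on CAS FAT-55 and 287, 310 and 335 CPM on CAS FAT-20 (-0.39 ± 0.06, adjusted p = 1.5e-06). None of these 3 overlapped between the groups. The other stalk proteins fell by a similar amount, Rplp1 with a log2 fold change of -0.38 and Rplp2 with -0.44. Rpl5 and Rpl11, which together bind the p53 regulator Mdm2 when ribosome assembly is disturbed, had log2 fold changes of -0.41 and -0.30.

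Rps27l, a paralog of Rps27 known as a target of the tumour suppressor p53, was the 1 tested member not called. It had 69.5, 74.9 and 81.4 CPM on CAS FAT-55 and 65.5, 73.5 and 79.7 CPM on CAS FAT-20, with a log2 fold change of 0.04 ± 0.07 (adjusted p = 0.667). Its paralog Rps27 (chr3:90212522-90213651, minus strand) had 45.1, 47.8 and 52.5 CPM on CAS FAT-55, all below the 65.3, 70.3 and 74.6 CPM on CAS FAT-20 (-0.54 ± 0.09, adjusted p = 8.7e-07). Almost all of Rps27's 75-base stretches, 98.5%, occur in other genes, so its level is uncertain. Rpl22, an RNA-binding large-subunit protein, had the smallest change among the called members at -0.21 ± 0.06 (adjusted p = 0.00425).

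The fall was present at the middle fat level on CAS. Comparing CAS FAT-40 with CAS FAT-20, 70 of 76 members were lower and none higher, beside 14.4% of all genes lower and 15.8% higher, with a member median of -0.34. The members not called were Rpl13a, Rpl3, Rpl41, Rps10, Rps2 and Rps27l. Libraries did not overlap for 31 members, against 0.937% of all genes. Rps28 had 27.1, 34.6 and 41.8 CPM on CAS FAT-40, below every CAS FAT-20 library (-0.54 ± 0.09, adjusted p = 3.33e-06). This comparison and the one at FAT-55 share the CAS FAT-20 mice, and their values are given side by side for that reason.

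On WPI members were also lower at higher fat, with smaller median changes when all libraries were used. Comparing WPI FAT-55 with WPI FAT-20, 49 of 76 members were lower and none higher, beside 12% of all genes lower and 14.6% higher, with a member median of -0.21. WPI FAT-40 against WPI FAT-20 gave 7 lower members, among them Rpl13, Rpl28, Rpl36, Rplp0 and Rps19, and none higher, beside 2.35% of all genes lower and 4.19% higher, with a median of -0.15. With the stem as a random effect (limma) none of these 7 was called, beside 0.704% of all genes lower. No member's libraries separated fully in either WPI comparison, against 0.226% of all genes at FAT-55 and 0.0266% at FAT-40. The liver library with high tilt, WPI FAT-55 replicate 2, bears on these counts: without it 72 of 77 members were lower at FAT-55, beside 12% of all genes, and 40 at FAT-40, beside 3.38%. The FAT-55 changes on WPI grew without it for Rps27a (-0.24 to -0.35), Rpl27a (-0.19 to -0.29), Rpl35a (-0.12 to -0.22) and Rpl4 (-0.08 to -0.16). These 4 are the members called in the interaction test further on. On CAS their changes without that library were -0.57, -0.50, -0.45 and -0.32. That library had the highest level of its group for each of the 6 members in the plot of liver levels by diet.

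Rps28 showed the largest of the called falls on WPI at FAT-55. It had 30.3, 37.2 and 74.6 CPM on WPI FAT-55 and 41.3, 56.3 and 63.6 CPM on WPI FAT-20, and the 2 groups overlapped (-0.42 ± 0.09, adjusted p = 0.000195). Rps19, a small-subunit protein whose human gene is mutated in Diamond-Blackfan anaemia, was lower at FAT-40 on WPI (-0.26 ± 0.07, adjusted p = 0.0197), as was Rpl36 (-0.27 ± 0.08, adjusted p = 0.0349), and both calls were lost with the stem as a random effect.

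**Figure D2:**
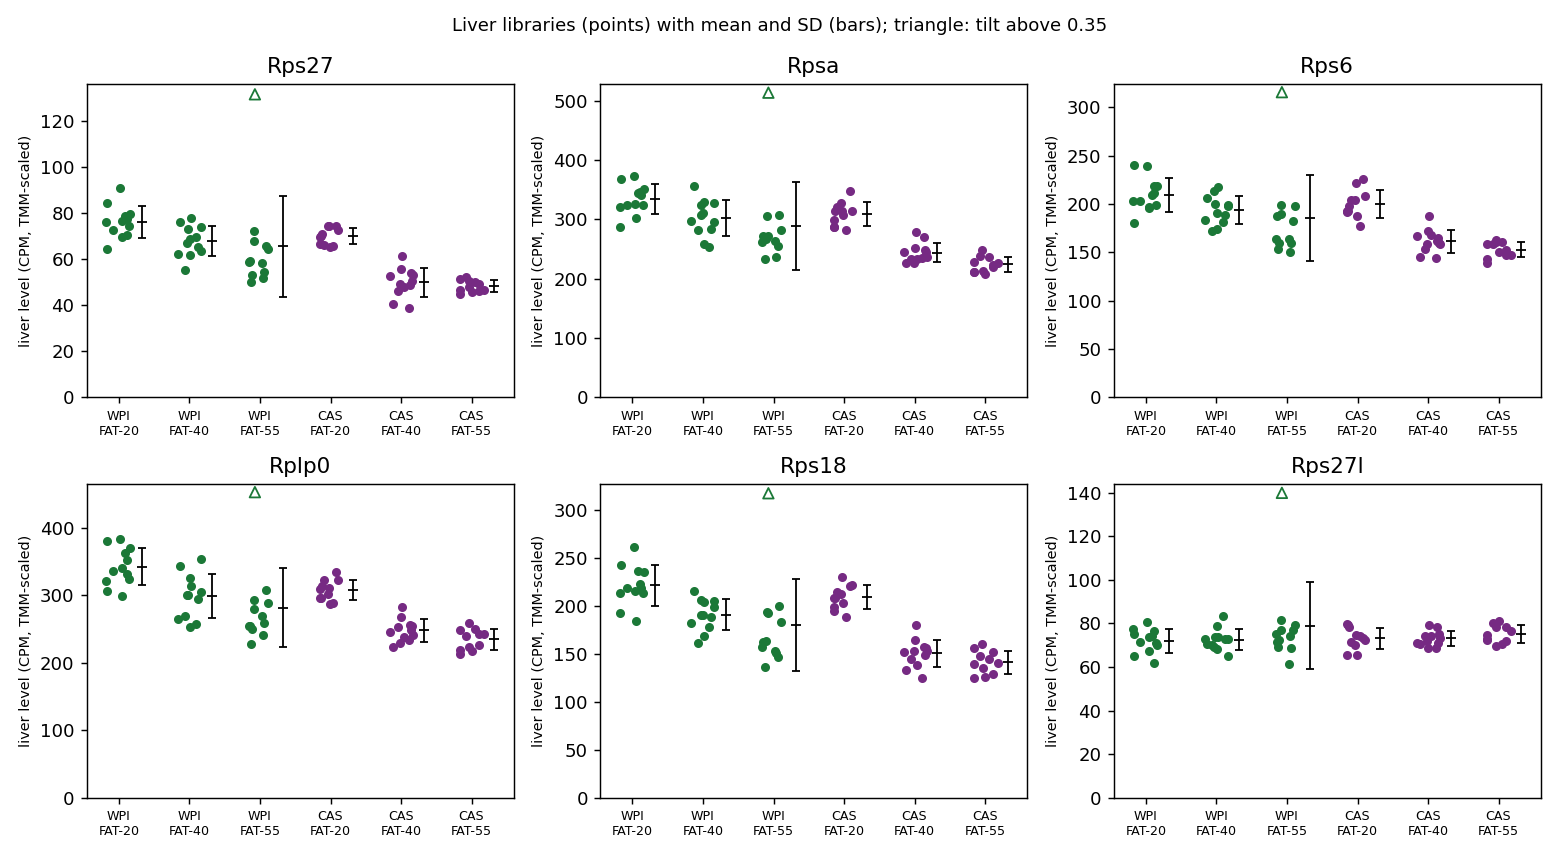
Level of 6 members in each liver library (point), in CPM scaled by TMM, by diet group, with group mean and SD (bars); the triangle is the WPI FAT-55 library of tilt 1.06. Rps27, Rpsa, Rps6, Rplp0 and Rps18 are lowest on CAS FAT-55 and CAS FAT-40, while Rps27l has group medians between 72.6 and 74.9 CPM.

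With fat held constant, members were higher on WPI than on CAS. Averaged over the 3 fat levels, 72 of 76 members rose on WPI and none fell, beside 7.1% of all genes higher and 7.56% lower, with a member median of 0.19. Without WPI FAT-55 replicate 2 it was 72 of 77 (median 0.15), beside 7.13% higher. With all libraries the exceptions were Rpl13a, Rpl41, Rps10 and Rps27l. The small subunit had 29 of 31 members higher (median 0.21) and the large subunit 43 of 45 (median 0.18).

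Level by level, the calls came at FAT-40 and FAT-55; whether the protein difference itself changed with fat is tested in the interaction further on. At FAT-20 no member was called by edgeR (median 0.06; 1 member at an unadjusted p under 0.05; DESeq2 called 0, with 2 unadjusted), beside 0.219% of all genes higher and 0.292% lower. At FAT-40, 55 of 76 members were higher on WPI (median 0.24), beside 3.85% of all genes higher and 4.37% lower. At FAT-55, 69 were higher (median 0.26), beside 7.07% of all genes higher and 7.43% lower, and none was lower at either level. Without WPI FAT-55 replicate 2 the FAT-55 count was 44 of 77 (median 0.15), beside 5.23% of all genes higher, and the FAT-40 count was 70, beside 4.85%. The FAT-20 count was again 0, with 11 members higher at an unadjusted p under 0.05 (edgeR). With the stem as a random effect the FAT-55 count was 39, beside 3.01% of all genes higher.

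Rps27 showed the largest called difference at FAT-40 and FAT-55 with all libraries. At FAT-40 it had 55.2, 68.0 and 77.8 CPM on WPI and 39.0, 50.02 and 61.5 CPM on CAS, with overlap at the edges (0.44 ± 0.08, adjusted p = 0.000291). At FAT-55 it had 50.1, 58.9 and 132 CPM on WPI and 45.1, 47.8 and 52.5 CPM on CAS (0.44 ± 0.08, adjusted p = 0.000278, and 0.30, adjusted p = 0.000433, without WPI replicate 2). At FAT-20 the same gene had 64.5, 76.3 and 90.8 CPM on WPI and 65.3, 70.3 and 74.6 CPM on CAS, a difference of 0.12 ± 0.08 that was not called (adjusted p = 0.541). Averaged over fat, Rpsa was higher on WPI by 0.26 ± 0.04 (adjusted p = 3.09e-06) and Rps21, a small-subunit protein with little shared sequence, by 0.26 ± 0.05 (adjusted p = 4.36e-05).

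The test of whether the FAT-55 minus FAT-20 change differed between WPI and CAS called 4 of 76 members, all with a change nearer 0 on WPI, beside 3% of all genes higher and 3.82% lower, a share near that of all genes. With the stem as a random effect none was called. These were the large-subunit proteins Rpl35a, Rpl27a and Rpl4 and the small-subunit protein Rps27a. Rpl35a had 72.5, 81.9 and 156 CPM on WPI FAT-55 against 88.0, 95.1 and 104 CPM on WPI FAT-20 (-0.12 ± 0.07, adjusted p = 0.190). On CAS it had 64.5, 69.6 and 75.1 CPM at FAT-55 against 85.7, 97.6 and 101 CPM at FAT-20 (-0.46 ± 0.07, adjusted p = 3.05e-07), so that the changes differed by 0.34 ± 0.10 (adjusted p = 0.0246). At an unadjusted p under 0.05 there were 46 members, and 15 of 77 without WPI FAT-55 replicate 2. The share of all genes at that p was not computed, so these counts have no background. Without WPI FAT-55 replicate 2, Rpl35a alone was called (0.23, adjusted p = 0.0252), beside 2.46% of all genes higher; with the stem as a random effect its adjusted p was 0.121 (limma).

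**Figure D3:**
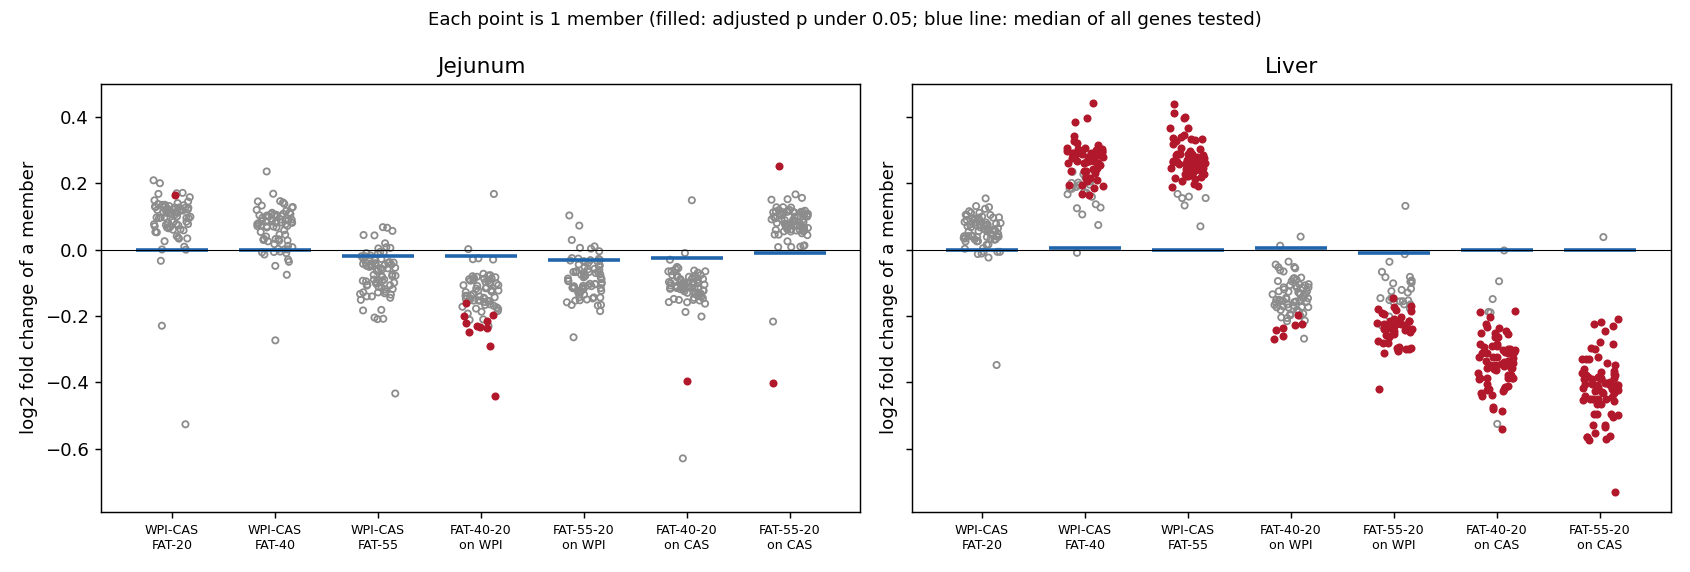
Log2 fold change of each tested member (point) in jejunum (77) and liver (76) for 7 comparisons named on the axis, filled where the adjusted p is under 0.05; the blue line is the median of all genes tested. Liver members lie below the line in the fat comparisons, furthest on CAS (medians -0.34 and -0.41), and above it for WPI minus CAS at FAT-40 and FAT-55 (0.24 and 0.26), while the jejunum medians run from -0.14 (FAT-40 minus FAT-20 on WPI) to 0.11 (WPI minus CAS at FAT-20).

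Genes that work beside the ribosomal proteins in liver were listed from textbook knowledge, with earlier results of these data known. Their counts on CAS FAT-55 against CAS FAT-20 stand beside 20.7% of all genes lower and 22.6% higher. Of 7 further cytosolic ribosomal protein genes outside the naming pattern, 6 were lower on CAS FAT-55 than on CAS FAT-20 and none higher (median -0.45). They included Rpl22l1, the paralog of Rpl22 (-0.85 ± 0.10), and Rack1, a scaffold on the small subunit (-0.45 ± 0.07). A further list of 26 genes held translation factors and other messages known for the pyrimidine tract, such as Tpt1 and Npm1. It was thus chosen partly for the tract. Of the 26, 22 were lower and none higher (median -0.22). Eef2, which moves the ribosome along the message, changed by -0.41 ± 0.06 and Eef1a1, which delivers aminoacyl-tRNA, by -0.27 ± 0.06.

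Of 50 ribosome assembly genes, 24 were lower and 1 higher on CAS FAT-55 (median -0.15), with the nucleolar protein gene Ncl at -0.31 ± 0.06 and Nop56, of the snoRNA methylation complex, at -0.35 ± 0.09. All 7 tested host genes of small nucleolar RNAs, whose spliced transcripts are also known for pyrimidine tracts, were lower (median -0.55), among them Gas5 (-0.38 ± 0.06) and Snhg1 (-0.67 ± 0.13). The genes of mTORC1 and its regulators went both ways, with 9 of 27 higher and 5 lower (median -0.01), the lower share being under that of all genes. Larp1, which binds the pyrimidine tract, changed by -0.30 ± 0.06, and the S6 kinase gene Rps6kb1 by -0.22 ± 0.05. The transcripts measure RNA only and say nothing of the kinase's activity.

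Of 12 p53 target genes, 8 were higher on CAS FAT-55 and none lower (median 0.55), including the cell-cycle inhibitor Cdkn1a (1.76 ± 0.40) and Ccng1 (0.80 ± 0.08), while Mdm2 had 0.08 ± 0.06 and was not called. Mitochondrial ribosomal proteins, a separate family, had 11 of 77 members higher and 14 lower (median -0.03), shares under those of all genes. Of 47 short nuclear transcripts of respiratory chain subunits, 15 were lower and none higher (median -0.12).

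Other measures moved with these liver groups. The summed level of 6 hepatocyte genes was 74888 to 90298 CPM on CAS FAT-55, against 84455 to 121556 CPM on CAS FAT-20, with 4 of the 6 genes lower. Hepatic stellate cell genes were higher in 5 of 5 (sum 275 to 563 CPM against 215 to 367 CPM), and fat-cell and lipid-droplet genes in 4 of 4 tested (sum 106 to 350 CPM against 34.2 to 86.9 CPM). A list for dividing crypt cells of the gut was higher in 5 of 5 tested (sum 18.3 to 34.3 CPM against 8.12 to 29.8 CPM). It holds Olfm4 and Lgr5 beside genes of cell division such as Mki67, so it is not a measure of division alone. None of 5 macrophage genes was called. On WPI FAT-55 against WPI FAT-20 none of the 6 hepatocyte genes was called. Their part in the ribosomal protein result was not tested. The tilt was -0.0922 to 0.0651 on CAS FAT-55 and -0.0934 to 0.0445 on CAS FAT-20.

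The starts of the member genes were searched for the pyrimidine tract, since the members moved together. RefSeq promoter windows on GRCm38.p6 were matched for 60 of the 80 members. Within 20 bases before to 20 bases from the annotated start, on the gene's strand only, 29 of the 60 (48.3%) held an unbroken run of at least 8 letters that are each C or T, against 18.4% of all 27025 genes in the table. Windows are shown for 4 members with a run and 2 without that fell in liver, from 20 bases before to 10 bases from the annotated start, written 5′ to 3′ with the run in capitals.
Rps18, chr17:33955656-33955685, minus strand: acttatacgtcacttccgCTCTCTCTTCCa
Rps27, chr3:90213639-90213668, minus strand: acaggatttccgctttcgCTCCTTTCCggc
Rpl28, chr7:4792945-4792974, plus strand: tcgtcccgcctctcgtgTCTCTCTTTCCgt
Rpl35a, chr16:33056462-33056491, plus strand: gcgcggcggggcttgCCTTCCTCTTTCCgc
Rps28, chr17:33824553-33824582, minus strand: tcctgggtaccgcgtgcggtctcgcgagag
Rpsa, chr9:120127746-120127775, plus strand: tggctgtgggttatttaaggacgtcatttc
The 4 printed runs begin within 5 bases of the annotated start. On CAS FAT-55 against CAS FAT-20 in liver, 28 of 29 members with a run were lower (median -0.41), and 27 of 27 tested members without one (median -0.40). Since 75 of all 76 tested members were lower, these counts could hardly differ. Whether the tract bears on the fall was not tested. An annotated start can lie some bases from the start used in a tissue, so a window without a run says only that these letters are not in it.

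In jejunum the members changed little. They took 1.62% to 3.56% of reads in all jejunum libraries but CAS FAT-55 replicate 11. Between WPI and CAS, taken as a mean of the 3 fat levels, 1 of 77 members was called, Rpl7a, a large-subunit protein, higher by 0.12 ± 0.03 (edgeR, adjusted p = 0.00243), beside 6.5% of all genes higher and 8.83% lower. The share of called members was below that of all genes. Rpl7a was also the 1 member called at FAT-20 (0.17 ± 0.05, adjusted p = 0.0439), beside 2.66% of all genes higher and 3.57% lower, with 462, 575 and 647 CPM on WPI FAT-20 and 467, 492 and 552 CPM on CAS FAT-20, groups that overlapped widely. This call at FAT-20 was lost with the stem as a random effect and with no filter on low counts.

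At FAT-40 and FAT-55 edgeR called no jejunum member between WPI and CAS. At FAT-40 there were 3 at an unadjusted p under 0.05 (2 higher, 1 lower). At adjusted p, 0.277% of all genes were called higher there and 0.294% lower. At FAT-55 there was 1 at an unadjusted p under 0.05, lower. At adjusted p, 0.889% of all genes were called higher there and 2.81% lower. DESeq2 called 0 in both. The member median was 0.08 at FAT-40 and -0.06 at FAT-55, where it was 0.05 without CAS FAT-55 replicate 11. Without that library, the one of high tilt in jejunum, 21 members were higher on WPI averaged over fat, beside 7% of all genes.

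Fat changed few jejunum members on CAS. FAT-55 against FAT-20 had a member median of 0.08, and of -0.04 without replicate 11. It gave Rps27l higher (0.25 ± 0.09, adjusted p = 0.0223) and Rps10 lower (-0.40 ± 0.13, adjusted p = 0.0145), beside 14.4% of all genes higher and 13.3% lower. Rps27l had 56.3, 75.5 and 124 CPM on CAS FAT-55 and 52.8, 68.8 and 80.5 CPM on CAS FAT-20, and without replicate 11 (0.16, adjusted p = 0.121), or with the stem as a random effect, it was not called. FAT-40 against FAT-20 gave Rps10 alone (-0.40 ± 0.13, adjusted p = 0.0156), beside 12.7% higher and 12.4% lower, and 7 members, all lower, without replicate 11, beside 13.9% of all genes lower. Rps10 had 1.10 to 1.998 CPM on CAS FAT-55, 1.12 to 2.08 CPM on CAS FAT-40 and 1.68 to 3.05 CPM on CAS FAT-20.

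On WPI the FAT-40 jejunum libraries had lower members than the FAT-20 libraries. Of 77 members 11 were lower and none higher (median -0.14), beside 13% of all genes lower and 12.7% higher, so the share of members was near the background. They included Rpl10, Rpl14, Rpl37a, Rpl8, Rplp0, Rplp2, Rps10, Rps13 and Rps28. Rplp2, a stalk protein, had 163, 229 and 250 CPM on WPI FAT-40 and 213, 270 and 337 CPM on WPI FAT-20, with overlap (-0.29 ± 0.09, adjusted p = 0.0101). Without CAS FAT-55 replicate 11, which is in neither group but enters the shared spread, 25 members were lower, beside 13.9% of all genes; with the stem as a random effect 3 were, beside 9.12%. The smooth muscle genes of the gut wall were lower in 7 of 7 in this comparison (median -1.04), with a summed level of 341 to 1010 CPM on WPI FAT-40 and 747 to 3348 CPM on WPI FAT-20, and fat-cell genes in 6 of 7; their part in the members' values was not tested.

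WPI FAT-55 against WPI FAT-20 gave no called member by edgeR or DESeq2 in jejunum, with 4 lower at an unadjusted p under 0.05, beside 14.2% of all genes higher and 16.6% lower. Without CAS FAT-55 replicate 11, 5 were lower, beside 16.9% of all genes. No member was called for a difference between the proteins in the FAT-55 minus FAT-20 change by either tool (4 lower at an unadjusted p under 0.05), beside 0% of all genes in either direction. On CAS, 45 of 47 respiratory chain transcripts, which are also short, rose at FAT-55 against FAT-20 in jejunum with all libraries (median 0.29). The shares of all genes for that comparison are given above. It includes CAS FAT-55 replicate 11, the library with an excess of short transcripts, and the count without that library is not given here.

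The hypothalamus values rest on the 13 libraries of high tilt. They were 6 of 11 on WPI FAT-20, 3 of 12 on WPI FAT-55, 4 of 10 on CAS FAT-20 and none in the other 3 groups. They came from 6 of the 24 identifier stems, and in 4 of these every library had high tilt. Members took 1.89% to 9.41% of reads in these 13 (median 4.81%) and 1.14% to 1.67% in the other 54. In the tissue the 8 hypothalamic neuron genes, such as Pomc and Agrp, were detected in every group, with summed values of 2983 to 20601.

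**Figure D4:**
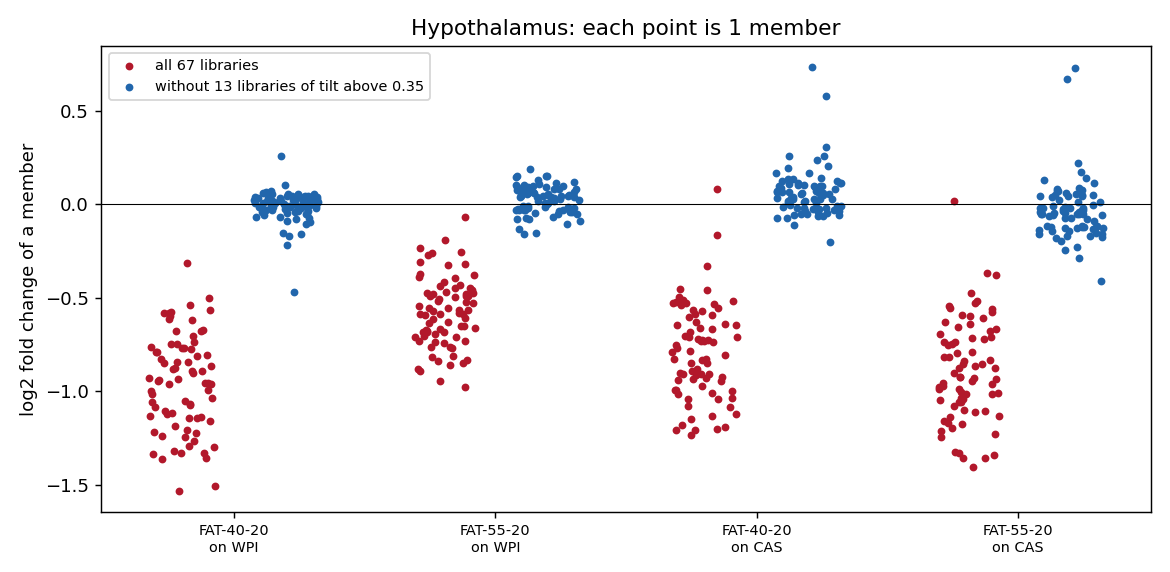
Log2 fold change of each tested hypothalamus member (point) for FAT-40 or FAT-55 against FAT-20 on WPI and on CAS, from all 67 libraries (red) and without the 13 libraries of tilt above 0.35 (blue). The member medians of -0.94, -0.58, -0.79 and -0.93 with all libraries lie at 0.00, 0.04, 0.05 and -0.05 without the 13.

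Rps19 had deposited normalized values of 3360, 15773 and 59068 (lowest, median, highest) in the 13 libraries and 1663, 2049 and 2785 in the other 54, with no overlap. Rpl26, a large-subunit protein that in human cells also binds p53 mRNA, had 3800, 15032 and 55935 in the 13 and 1798, 2315 and 3338 in the other 54. Rplp0, with 4117, 7616 and 14731 in the 13 and 2794, 3310 and 4033 in the other 54, differed less but also without overlap. The 13 libraries were picked for an excess of short transcripts other than the members. Members are short too, with a median of 774 bases against 2759.75 for all genes tested. Their high values in these libraries are therefore no separate result. The share of all genes without overlap between the 13 and the other 54 is not given here. The same 13 mice had a tilt of -0.159 to 0.0991 in jejunum and -0.124 to 0.119 in liver, and none of those libraries exceeded the limit.

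With all libraries, 75 of 77 members were lower on WPI FAT-40 than on WPI FAT-20 and none higher (limma on log2 values, adjusted p under 0.05; median -0.94), beside 14.6% of all genes lower and 38% higher. The members not called were Rpl13a and Rpl3l. Rps19 had values of 1816, 2044 and 2785 on WPI FAT-40 and 1979, 6079 and 26494 on WPI FAT-20, which overlapped (-1.53 ± 0.45, adjusted p = 0.00533). Without the 13 libraries 0 of 77 members were called by limma (median 0.00, none at an unadjusted p under 0.05), beside 0.0135% of all genes lower and 3.69% higher. With all libraries 46 of 47 respiratory chain transcripts, which are also short, were lower in this comparison (median -0.79).

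The other fat comparisons in hypothalamus had the same dependence. WPI FAT-55 against WPI FAT-20 called Rps15a (-0.66 ± 0.26, adjusted p = 0.0368) and Rps2 (-0.56 ± 0.21, adjusted p = 0.0331) as lower, beside 5.84% of all genes lower and 29.5% higher, and none without the 13 (3 at an unadjusted p under 0.05). With the stem as a random effect it called none, and edgeR on the recovered reads called 24 as lower, beside 12.4%. CAS FAT-55 against CAS FAT-20 called 4 as lower (Rpl30, Rpl9, Rps15a and Rps27), beside 1.06% lower and 1.27% higher. Here too none was called with the stem as a random effect, and edgeR on the recovered reads called 75 as lower, beside 13.2%. Rps27 had 860, 956 and 1188 on CAS FAT-55 and 897, 1287 and 7458 on CAS FAT-20 (-0.94 ± 0.23, adjusted p = 0.0287, and -0.25, adjusted p = 0.322, without the 13). CAS FAT-40 against CAS FAT-20 called none by limma (median -0.79, 72 lower at an unadjusted p under 0.05), beside 0.0472% lower and 0.189% higher. In that comparison edgeR on the recovered reads called 75 as lower, beside 9.73% of all genes lower. Without the 13 libraries Rpl35, 68.3% of whose exon bases are overlapped, was the 1 member called in each CAS comparison, and it was higher (0.58 at FAT-40 and 0.73 at FAT-55, adjusted p = 0.0101 and 0.000399).

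Between the proteins, limma called no hypothalamus member with all libraries, averaged over fat or at any level. The shares of all genes in this paragraph are at an adjusted p under 0.05, also beside unadjusted counts of members. At an unadjusted p under 0.05 there were 3 higher on WPI averaged over fat, beside 0.324% of all genes called higher and 1.83% lower. At FAT-20 there were 0 (0.00674% higher and 1% lower), at FAT-40 1, lower (0% in both directions), and at FAT-55 8, higher (2.05% higher and 3.87% lower). The test of a difference between the proteins in the FAT-55 minus FAT-20 change had 0 at either level of p, beside 1.83% higher and 1.67% lower. On the recovered reads edgeR called 0 members in each of these, with 57 higher at FAT-55 at an unadjusted p under 0.05. Without the 13 libraries, 31 members were higher on WPI at FAT-55 (median 0.16), beside 11.9% of all genes higher and 6.79% lower, and 8 averaged over fat, beside 1.07% higher. The 8 were Rpl36, Rpl37, Rpl41, Rps21, Rps23, Rps27, Rps28 and Rps29. At FAT-55 without the 13, Rps27 was higher by 0.37 (adjusted p = 0.00131) and Rpl30 by 0.29 (adjusted p = 0.00384), and 28 of 47 respiratory chain transcripts were higher and 1 lower (median 0.20).

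The fat groups of the hypothalamus also differed in transcripts of another tissue. Summed values of 6 genes of Paneth cells, which sit in intestinal crypts, were 39.8 to 874 on WPI FAT-40 and 46.1 to 68.3 on CAS FAT-40, against 0 to 64.3 on WPI FAT-20 and 0 to 105 on CAS FAT-20. On FAT-55 they were 5.02 to 10.8 on WPI and 1.92 to 15.2 on CAS. Their part in the members' values was not tested.

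Most members were higher in jejunum than in liver on counts scaled by TMM, and by less with a GC and length offset. TPM come from the same counts without TMM scaling between the tissues. They differ from the fit by about the same amount for every member, so they are no separate support. In a joint fit of the counts, 73 of 77 members were higher in jejunum and 2 lower (edgeR, median log2 difference 0.78), beside 50.5% of all genes higher and 43.9% lower with a median of 0.11. For 67 of the 73 the TPM ranges of 70 jejunum and 70 liver libraries did not overlap. The share of all genes that separated in this way was not computed, so this count has no background. Rps12, a small-subunit protein, differed the most, with 2057 ± 318 TPM in jejunum and 430 ± 66.2 TPM in liver (SD, n = 70 each), a log2 difference of 1.62 ± 0.03 SE (adjusted p = 9.77e-85). Rpl12, a stalk-base protein, followed at 1.35 ± 0.03 and Rps20 at 1.30 ± 0.04.

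The order among members was not the same in both tissues. Rpl10 (0.03 ± 0.03, adjusted p = 0.285) and Rps2 (0.03, adjusted p = 0.221) did not pass the test on counts, although their TPM were 1246 in jejunum against 785 in liver for Rpl10 and 1201 against 751 for Rps2. Rps27l was lower in jejunum by -0.71 ± 0.03 (adjusted p = 9.54e-48), at 243 ± 33.998 TPM against 256 ± 21.5 TPM in liver. Rpl24 was lower by -0.25 ± 0.11 (adjusted p = 0.0245) on counts and higher in TPM, at 0.872 against 0.681, both near the detection limit. With GC content and transcript length fitted as an offset, 52 members were higher in jejunum and 15 lower, beside 44.7% of all genes higher and 50.2% lower. The member median was then 0.26, against -0.10 for all genes, and Rpl10 had a log2 difference of -0.30. On the TPM scale 76 of 77 tested members had a higher mean in jejunum, with a median log2 ratio of 1.42, against 0.78 in the fit on counts. This gap is one of scaling, and it also lies between the TPM and the fitted differences of Rpl10, Rps2 and Rpl24.

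**Figure D5:**
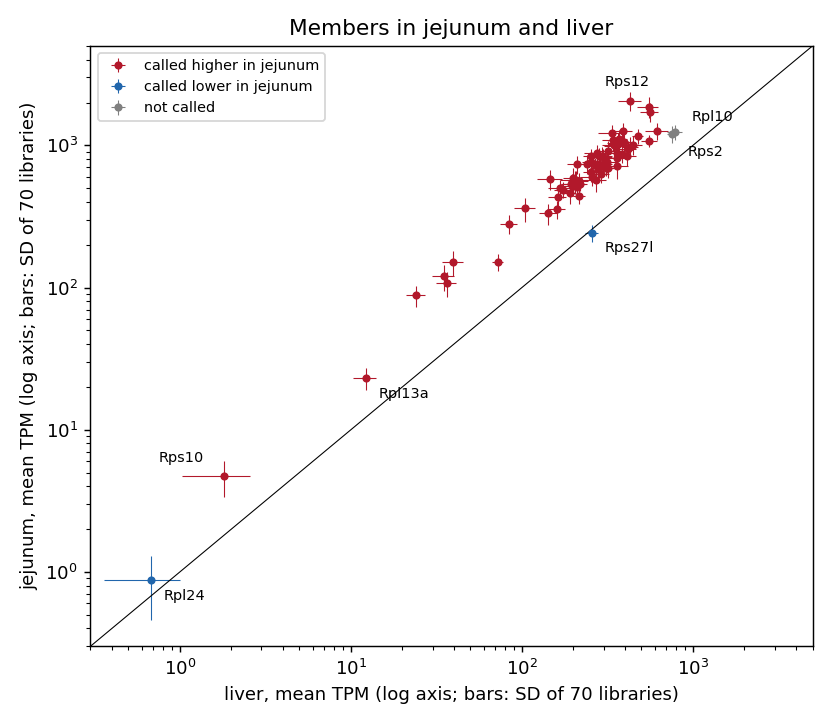
Mean level of each tested member (point) in jejunum and in liver, in TPM on log axes, with the SD over 70 libraries of each tissue. The line marks equal TPM, which are not TMM-scaled between the tissues. Rps27l lies on the line's liver side (243 TPM in jejunum, 256 TPM in liver) and Rps12 lies farthest from it on the jejunum side.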

How the data were processed

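The authors' deposited tables hold counts of reads per Ensembl gene for jejunum and liver. For hypothalamus the authors' deposited signal is counts divided by 1 size factor per library (0.712 to 1.08). Of its values, 100% gave whole reads within 0.05. Per the submitters' processing notes, cutadapt, Trim Galore 0.61, FastQC, STAR, DESeq2 1.24.0 and GRCm38 were used; strand, annotation release and the STAR version are not given in the sources used here. Jejunum and liver RNA came from RNeasy kits, per the labels' protocols; for hypothalamus they list Tri-reagent and the same kit, without saying how the 2 were combined.

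From these, edgeR 4.0.16 (filterByExpr with a minimum count of 10, TMM, quasi-likelihood test) was run on all genes of jejunum and of liver, with 1 mean per diet group, and on both tissues joined. limma 3.58.1 (trend, on log2(value + 1), values of at least 10 in 10 libraries or more) was run on hypothalamus, where a fold change understates that of low genes. R was 4.3.3. P-values were Benjamini-Hochberg adjusted over all genes, with 0.05 as threshold, and measure the spread between mice. Shares of all genes are at the adjusted threshold throughout, so they are no background for counts of members at an unadjusted p. TPM used annotated exon lengths.

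On simulated counts for the CAS diets with the most and least fat, 1.25-fold changes were recovered for 46% of changed genes in jejunum, 56% in liver and 14% in hypothalamus, and 1.5-fold changes for 70%, 86% and 66%; 4.32%, 7.14% and 2.11% of calls were false. The simulation changed a smaller share of genes than was called in jejunum and liver, and drew libraries without stem correlation or tilt. Its rates may therefore not hold for these data. Members and lists were chosen with earlier results of these data known. Named were up to 4 called members with the largest change in each direction of a comparison, the 5 highest and 5 lowest per length in a tissue, tissue-restricted paralogs, members tested in only some tissues, and fixed members chosen for their role. Others were chosen after their values were seen, and some that the rule names are not reported here. Alternatives were DESeq2 1.42.0 and its size factors, no filter on low counts, a GC and length offset, the animals' identifier stem (their identifier without its last digit) as a random effect, and libraries of high tilt left out. Jejunum and liver of the same mouse were also paired by mouse.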

Additional observations from a re-analysis of the deposited data

Results flagged for a closer look

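In hypothalamus, 1 of the 10 CAS FAT-20 libraries stood apart from the other 9 for 21 members, by the gap between its value and the next relative to the range of the group. It was the highest library each time, and it is 1 of the 13 with a tilt above 0.35. Its deposited values were 59068 for Rps19, 35907.5 for Rps3, 23394 for Rps27a, 20198 for Rps15a and 12480 for Rps20 among the small-subunit proteins. Among the large-subunit proteins they were 62931 for Rpl3, 55935 for Rpl26, 44391 for Rpl7, 41504 for Rpl35a, 38885 for Rpl11, 33739.5 for Rpl9, 28976 for Rpl4, 28195 for Rpl5, 25750 for Rpl27a, 24757 for Rpl10, 18874 for Rpl28, 8446 for Rpl22, 4661 for Rpl35 and 433 for Rpl13a. The paralogs Rpl3l and Rpl39l had 25.3 and 11.2. The check was run on 45 groups of values, and chance alone gives such a gap in about 1 in 20.

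In liver, the change at FAT-55 relative to FAT-20 differed between WPI and CAS by the interaction test for 4 members, with log2 differences of 0.34 for Rpl35a, 0.34 for Rps27a, 0.32 for Rpl27a and 0.24 for Rpl4. All 4 had a change nearer 0 on WPI than on CAS. They are 4 of 76 members tested, beside 3% of all genes higher and 3.82% lower, a share near that of all genes. Without WPI FAT-55 replicate 2 Rpl35a alone was called, and with the identifier stem as a random effect none was (adjusted p = 0.121 for Rpl35a, limma).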

How the results depend on the processing

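The calls in liver for FAT-40 and FAT-55 against FAT-20 on CAS, and for WPI against CAS averaged over fat, stayed within 1.5 times under every alternative run. Counts below are of members called in either direction. Where no share of all genes stands beside a count, it shows only how far the calls moved. Removing the libraries of high tilt, chosen after seeing the data, moved the most counts. In liver it gave 44 members for WPI against CAS at FAT-55 (69 with all libraries), 40 for FAT-40 against FAT-20 on WPI (7) and 1 for the interaction (4). In jejunum it gave 21 for WPI against CAS averaged over fat (1), 7 for FAT-40 (1) and 1 for FAT-55 (2) on CAS, and 25 for FAT-40 (11) and 5 for FAT-55 (0) on WPI. In hypothalamus it gave 8 for WPI against CAS averaged over fat (0), 31 at FAT-55 (0), 1 each for FAT-40 (0) and FAT-55 (4) on CAS, and 0 each for FAT-40 (75) and FAT-55 (2) on WPI; there the change of Rps27l reversed to 0.0317 for FAT-40 on WPI.

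The GC and length correction gave, in jejunum, 14 for WPI against CAS averaged over fat, 4 at FAT-20, 1 at FAT-40, 8 for FAT-55 on CAS and 3 for FAT-55 on WPI. In liver it gave 15 for FAT-40 on WPI and 10 for the interaction. In hypothalamus it gave 20 for FAT-40 on CAS, all lower, beside 1% of all genes lower. For FAT-55 on CAS it gave 47 there, all lower, beside 4.79%. For FAT-55 on WPI it gave 16, of which 15 were lower, beside 9.24%. DESeq2 gave 2 in jejunum for WPI against CAS averaged over fat, both higher, beside 3.49% of all genes higher. Its size factors in edgeR also gave 2, beside 7.22%. In liver DESeq2 gave 11 for FAT-40 on WPI. In hypothalamus edgeR on recovered reads gave 75 for each CAS comparison, all lower, beside 9.73% of all genes lower at FAT-40 and 13.2% at FAT-55. It gave 24 for FAT-55 on WPI, all lower, beside 12.4%. With no filter, jejunum gave 0 for WPI against CAS at FAT-20 and 4 and 1 for FAT-40 and FAT-55 on WPI, liver 3 for FAT-40 on WPI and 1 for the interaction, and hypothalamus 2 for FAT-55 on CAS. The identifier stem as a random effect gave, in jejunum, 0 for WPI against CAS at FAT-20, 1 for FAT-55 on CAS and 3 for FAT-40 on WPI. In liver it gave 39 for WPI against CAS at FAT-55 and 0 for both FAT-40 on WPI and the interaction, and in hypothalamus 0 for FAT-55 on either protein. The causes were not tested.

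Within a tissue, no paired analysis was possible because each mouse ate 1 diet and the replicate numbers pair no mice. Between jejunum and liver, the replicate block by mouse, paired by the labels' animal identifier, left 75 members called, 73 higher and 2 lower (median 0.78). For 1 of the 70 pairs, in CAS FAT-20, the samples' titles carry different animal numbers in jejunum and liver, so it may join 2 mice. Depth limits Rps10, Rpl24, Rpl3l, Rpl39l and Rpl10l.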
